A study of Homo sapiens with 9 samples.

Results

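The genes described here are 46 DNA damage response and repair genes, taken by name from a fixed list out of 20037 protein-coding genes on chromosomes 1 to 22, X and Y. Each gene was examined over its RefSeq GRCh38 gene body and 10 kb to each side, called its window below. They belong to a ChIP-seq study of RPMI-8402, a line grown from a human acute lymphoblastic leukaemia of T cells (T-ALL). An antibody against the homeodomain factor NKX2-1 (also called TTF1) was used on 4 clones in which NKX2-1 was knocked out (C12, C15, S04 and S36) and on 4 wild-type (WT) clones (WT10, WT13, WT28 and WT30), each with 1 library. A single further library, whose genotype field also reads NKX2-1 and for which no clone is named, was made with an antibody against H3K27ac, the acetylation of histone H3 found at active promoters and enhancers. The series' design names the knockout clones, whose genotype field reads only NKX2-1. Every clone is a derivative of 1 leukaemia line, and the spread between clones cannot be told apart from that between library preparations.

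Cells meet broken or chemically altered DNA with a signalling layer and several repair routes. The MRN complex and the kinases ATM and ATR sense breaks and stalled forks, and the kinases CHEK1 and CHEK2 pass the signal on to the cell cycle. Double-strand breaks are mended by homologous recombination or by end joining, crosslinks by the Fanconi anaemia pathway, and altered bases by excision, mismatch or direct-reversal repair. The series title sets NKX2-1 beside DNA damage in T-ALL, so the question put to these files was whether NKX2-1 antibody peaks lay at the repair genes, and which of these genes carried H3K27ac.

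On chromosomes 1 to 22, X and Y, to which all lists were cut, the H3K27ac list held 9857 peaks with an enrichment of 3.74 to 27.7-fold. The NKX2-1 antibody lists held 810 to 934 peaks there in knockout clones and 742 to 1144 in WT clones. Read depth is unknown for every library, so a gene without a peak is one at which none was called. At NKX2-1 itself (chromosome 14, 36516397 to 36520232) each of the 8 antibody libraries had 0 peaks in the window, which held 4 H3K27ac peaks. Peaks at this gene do not check the genotype. Knockout clones had calls as WT clones did, so a call alone cannot be read as NKX2-1 binding. As a check of the cell type, 5 of 9 T-cell marker genes had an H3K27ac peak within 1 kb of a gene end, against 19.0% of all protein-coding genes. They were CD3D (8.08-fold), CD3E (11.8-fold), CD3G (6.92-fold), LCK (7.72-fold) and ZAP70 (11.3-fold), so the CD3 chains make up most of them. Of the markers of B, myeloid, epithelial and liver cells, 0 of 11 had one. CD2 and CD7 had no H3K27ac peak in the window, while CD5 had 3 and TCF7 had 11, none of them at a gene end. Elsewhere in the window, 4 of the 11 markers of other cells also had a peak (CD79A, MPO, CD14 and CDH1).

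Promoters of 8 of the genes are shown, to set genes with H3K27ac at the start beside genes without it. They are the 3 with the strongest H3K27ac at a gene end among the genes with a promoter entry (RNF168, MSH6 and MDC1), a pair with weaker peaks from the recombination and crosslink routes (BRCA1 and FANCD2), and 3 genes with no peak in the window (CHEK2, TP53BP1 and BRCA2). Each run covers 250 bases before and 50 bases from an annotated start, 5′ to 3′ on the gene's strand, from RefSeq (GRCh38.p14). They lie at chr3:196503719-196504018 (minus strand) for RNF168, chr2:47782895-47783194 (plus) for MSH6, chr6:30717232-30717531 (minus) for MDC1, chr17:43125315-43125614 (minus) for BRCA1, chr3:10026187-10026486 (plus) for FANCD2, chr22:28741771-28742070 (minus) for CHEK2, chr15:43510591-43510890 (minus) for TP53BP1 and chr13:32315258-32315557 (plus) for BRCA2. Capitals mark every match, on either strand, to the CCAAT box (CCAAT), an E2F motif (TTTCCCGC, TTTGGCGC or TTTCGCGC), an ETS motif (CCGGAAGT), a RUNX motif (TGTGGT) or the NKX2-1 core (CAAGTG).
RNF168: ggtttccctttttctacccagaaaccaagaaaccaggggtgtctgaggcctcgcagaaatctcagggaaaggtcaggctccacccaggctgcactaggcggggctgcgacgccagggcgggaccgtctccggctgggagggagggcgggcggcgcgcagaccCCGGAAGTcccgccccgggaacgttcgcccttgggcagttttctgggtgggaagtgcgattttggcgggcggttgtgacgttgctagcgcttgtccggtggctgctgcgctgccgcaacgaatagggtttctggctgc
MSH6: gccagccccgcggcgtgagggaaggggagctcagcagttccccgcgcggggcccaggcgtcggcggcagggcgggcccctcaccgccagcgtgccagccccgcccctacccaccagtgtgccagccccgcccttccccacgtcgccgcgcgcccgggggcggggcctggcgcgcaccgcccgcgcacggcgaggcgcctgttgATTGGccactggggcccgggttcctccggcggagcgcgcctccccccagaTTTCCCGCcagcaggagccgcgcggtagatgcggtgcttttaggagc
MDC1: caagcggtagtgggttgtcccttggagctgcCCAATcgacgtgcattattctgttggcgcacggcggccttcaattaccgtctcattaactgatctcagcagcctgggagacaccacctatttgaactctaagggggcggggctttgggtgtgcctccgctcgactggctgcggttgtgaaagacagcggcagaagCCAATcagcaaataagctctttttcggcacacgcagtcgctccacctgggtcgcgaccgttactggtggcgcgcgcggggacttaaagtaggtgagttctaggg
BRCA1: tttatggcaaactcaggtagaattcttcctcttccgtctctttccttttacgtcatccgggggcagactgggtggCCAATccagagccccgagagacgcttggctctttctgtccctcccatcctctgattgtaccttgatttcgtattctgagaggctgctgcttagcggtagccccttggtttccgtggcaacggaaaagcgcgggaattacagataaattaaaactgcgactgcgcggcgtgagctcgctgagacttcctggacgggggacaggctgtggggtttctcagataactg
FANCD2: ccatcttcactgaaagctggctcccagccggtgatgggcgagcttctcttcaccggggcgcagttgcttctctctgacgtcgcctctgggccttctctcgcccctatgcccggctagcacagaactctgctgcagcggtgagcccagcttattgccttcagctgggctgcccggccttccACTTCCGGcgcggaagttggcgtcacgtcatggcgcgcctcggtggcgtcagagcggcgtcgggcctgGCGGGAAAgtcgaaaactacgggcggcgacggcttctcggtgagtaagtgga
CHEK2: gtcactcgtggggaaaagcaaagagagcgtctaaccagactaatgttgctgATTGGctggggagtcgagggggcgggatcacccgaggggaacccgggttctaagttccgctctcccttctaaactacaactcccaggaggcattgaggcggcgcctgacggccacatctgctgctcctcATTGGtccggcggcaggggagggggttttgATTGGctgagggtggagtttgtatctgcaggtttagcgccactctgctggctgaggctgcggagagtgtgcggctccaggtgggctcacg
TP53BP1: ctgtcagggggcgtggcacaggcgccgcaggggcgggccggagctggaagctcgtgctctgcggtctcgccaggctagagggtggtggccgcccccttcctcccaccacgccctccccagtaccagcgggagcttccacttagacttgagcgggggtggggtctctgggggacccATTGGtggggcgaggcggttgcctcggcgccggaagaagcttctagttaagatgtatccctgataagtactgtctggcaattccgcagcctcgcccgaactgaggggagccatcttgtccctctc
BRCA2: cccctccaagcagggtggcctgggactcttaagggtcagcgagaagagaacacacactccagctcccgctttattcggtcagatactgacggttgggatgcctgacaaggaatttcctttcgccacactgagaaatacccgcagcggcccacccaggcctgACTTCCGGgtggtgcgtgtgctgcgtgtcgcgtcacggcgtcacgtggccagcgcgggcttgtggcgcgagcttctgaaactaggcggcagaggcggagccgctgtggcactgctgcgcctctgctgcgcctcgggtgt

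In these runs the capitals stand for 1 ETS match in RNF168, 1 CCAAT box and 1 E2F match in MSH6, 2 CCAAT boxes in MDC1, 1 in BRCA1, 1 E2F and 1 ETS match in FANCD2, 3 CCAAT boxes in CHEK2, 1 in TP53BP1 and 1 ETS match in BRCA2. None of the 8 held the RUNX or the NKX2-1 letters, which says only that those letters are not in these windows.

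H3K27ac was found at the ends of 25 of the 46 repair genes (54.3%), counting peaks within 1 kb of either end of the gene body. Over all protein-coding genes the share was 19.0% (3811 of 20037). Peaks elsewhere in the window were found for 9 of the 46 (19.6%), against 15.3% of all genes, and 3 of the 46 had such a peak and none at a gene end (6.52%, against 9.98% of all genes). Taking both kinds, 28 of the 46 (60.9%) had a peak in the window, against 29.0% of all genes, and 11 had at least 2, a share of 23.9% against 12.1%. A separate list of 80 other repair genes had a gene-end peak in 27 cases (33.8%) and a peak in the window in 42 (52.5%). With 1 H3K27ac library no test between samples can be made, and these shares are descriptions.

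**Figure D1:**
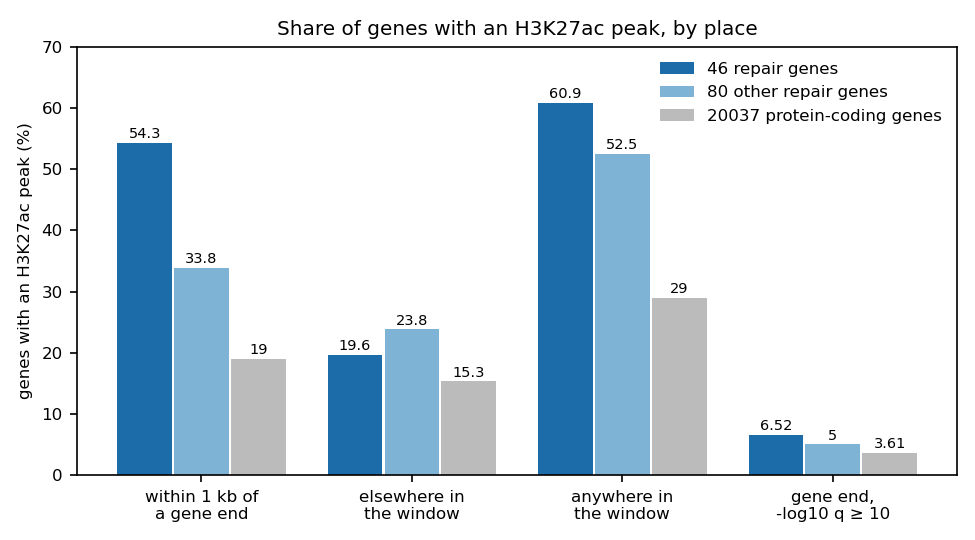
Share of genes with an H3K27ac peak (percent) for the 46 repair genes, 80 other repair genes and all 20037 protein-coding genes, by the place of the peak. The gene-end share is 54.3% for the 46 genes against 19.0% of all genes, and the share with a gene-end peak of −log10 q of 10 or more is 6.52% against 3.61%.

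The peaks at the repair genes were no stronger than those at other genes by their median. Enrichment and q are the authors' values for each peak, used here only to describe peaks within the H3K27ac list or within 1 antibody list. The strongest gene-end peak per gene had a median enrichment of 6.19-fold in the 25 genes (4.26 to 14.98), 6.92-fold in the 27 other repair genes with one, and 6.68-fold in the 3811 genes of the whole annotation. Their median width was 370 bp, against 470 bp over all genes, and 3 of the 25 were at the shortest width in the list, 200 bp. The authors' −log10 q of these peaks had a median of 4.92 in the 25 genes and 6.3 over all genes, where the lowest value in the H3K27ac list was 2.1. Only 3 of the 46 genes (6.52%) had a gene-end peak with a −log10 q of 10 or more, against 3.61% of all genes, so 22 of the 25 had gene-end peaks below that value only. The deposited enrichment takes repeated values: 5.45-fold stands at 5 peaks in these windows (ATM, ERCC4, MGMT, NBN and XRCC3) and at 637 of the 9857 peaks, so genes that share it cannot be ranked.

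The repair genes are longer than most. Their median gene length was 54.5 kb against 24.1 kb over all genes, so their windows are longer too. The space searched at gene ends does not depend on length, except in the shortest genes, where the regions around both ends overlap and the space is smaller. Among the 46, median length was 51.3 kb for genes with a gene-end peak and 54.9 kb for those without. No 2 windows of the 46 overlapped, so the 48 peaks found were 48 different ones.

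**Figure D2:**
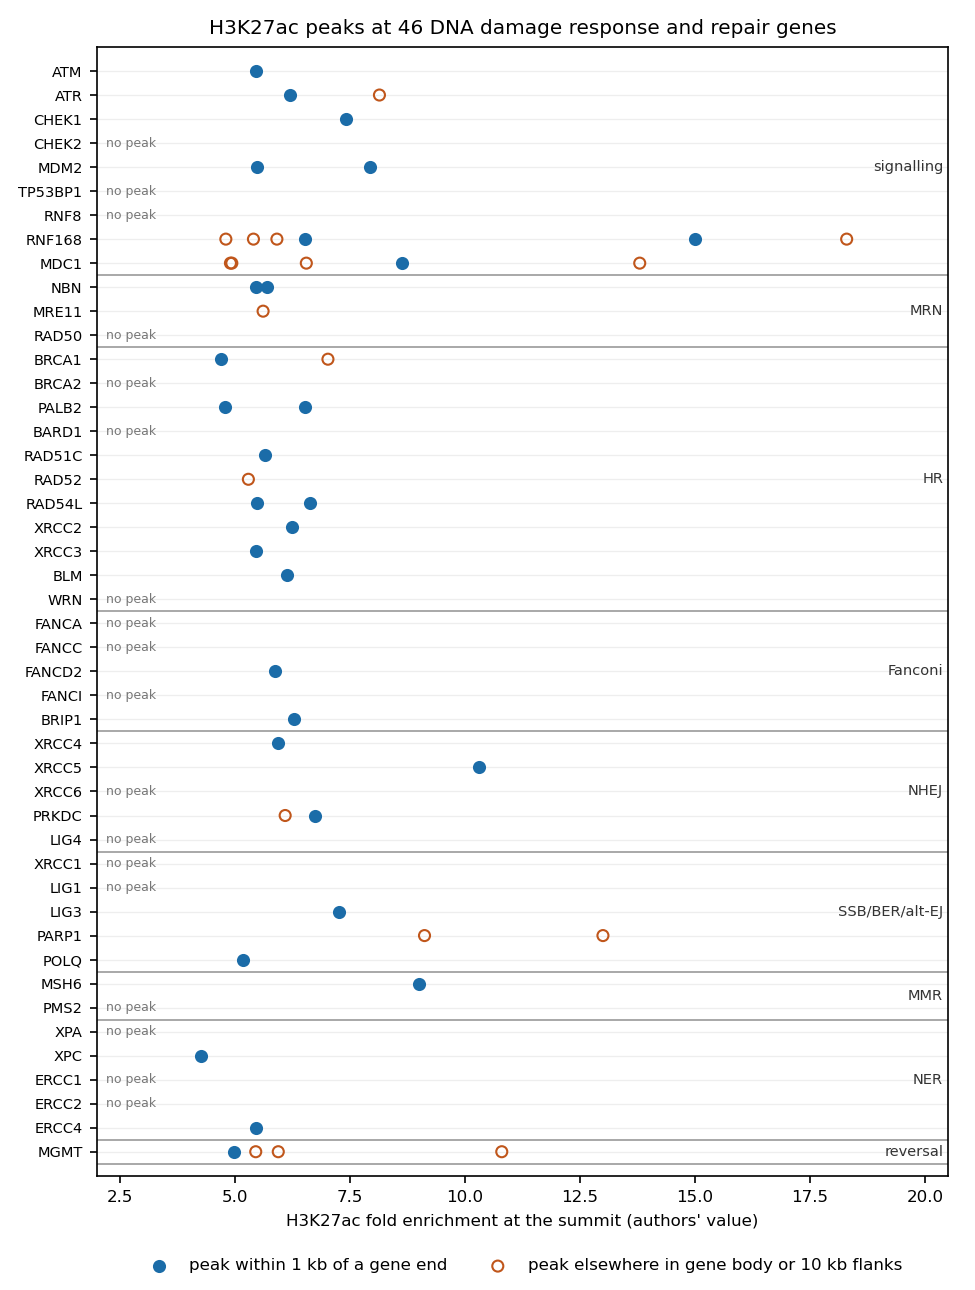
Every H3K27ac peak in the windows of the 46 genes, one row per gene and grouped by repair route, with the authors' fold enrichment on the horizontal axis. Filled points are peaks within 1 kb of a gene end and open points are peaks elsewhere in the window, and RNF168 reaches 18.3-fold while 18 rows have no peak.

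Among the 9 damage signalling genes 6 had a gene-end peak, with a median of 7.68-fold. RNF168, a ubiquitin ligase that marks chromatin around breaks, stood highest with 6 peaks in its window. One of 14.98-fold covered the first part of the gene (chromosome 3, 196500949 to 196503745, 2797 bp wide) and one of 18.3-fold lay upstream of the start (196510022 to 196513539), with no end of another protein-coding gene within 1 kb. The remaining 4 peaks of RNF168 had 4.8 to 6.52-fold enrichment. MDC1, the scaffold that binds the phosphorylated histone at breaks, had 5 peaks, among them one of 8.63-fold at its start and one of 13.8-fold (chromosome 6, 30720355 to 30721458) that lay within 1 kb of an end of the tubulin gene TUBB.

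The other signalling genes had weaker peaks than RNF168 and MDC1. ATM had a single 200 bp peak of 5.45-fold, within 1 kb of an end of its neighbour NPAT, so that this peak cannot be given to either gene. ATR had 6.19-fold at its start and a peak of 8.14-fold beyond its other end, beside XRN1. CHEK1 had 7.41-fold (chromosome 11, 125625885 to 125626352). MDM2, a ubiquitin ligase of the damage checkpoint, had 7.94-fold and 5.48-fold peaks beside one another at its 5′ end. CHEK2, TP53BP1, which steers breaks towards end joining, and RNF8, the ubiquitin ligase that acts before RNF168, had no peak in the window.

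Of the 3 MRN genes, NBN had a pair of gene-end peaks of 5.45-fold and 5.7-fold. MRE11, the nuclease, had a peak of 5.61-fold (chromosome 11, 94493222 to 94493837) whose summit lay 320 bp into the gene from its annotated start. It counted as elsewhere because the RefSeq gene body reaches further upstream, and it lay within 1 kb of an end of ANKRD49. RAD50, the long coiled-coil subunit, had none, its nearest H3K27ac peak being 81.0 kb away.

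Homologous recombination genes had a gene-end peak in 7 of 11 cases, none above 6.63-fold. RAD54L, a DNA translocase, had 6.63-fold and 5.48-fold peaks on either side of its start, and PALB2, which links BRCA1 to BRCA2, had 6.52-fold and 4.78-fold peaks on the side it shares with DCTN5. XRCC2 (6.23-fold), BLM helicase (6.13-fold), RAD51C (5.66-fold) and XRCC3 (5.45-fold) each had a single peak. That of RAD51C lay within 1 kb of ends of IGBP1C and TEX14, and that of XRCC3 within 1 kb of an end of ZFYVE21. BRCA1 had its stronger peak, 7.02-fold (chromosome 17, 43124935 to 43125274), with the summit 239 bp into the gene from the start shown above, and a weaker one of 4.7-fold beside its outermost start and NBR1. RAD52 had a peak of 5.29-fold with the summit 260 bp into the gene from one of its annotated starts, again counted as elsewhere. BRCA2, BARD1, the partner of BRCA1, and the helicase WRN had none.

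In the Fanconi anaemia pathway FANCD2, which is ubiquitinated at crosslinks, had 5.87-fold and the helicase BRIP1 had 6.28-fold, while FANCA, FANCC and FANCI had no peak. FANCI, the partner of FANCD2, was the gene just outside the 10 kb window, with an H3K27ac peak 16.8 kb away, where PARP1, at 7143 bp, was the one just inside it. Among end-joining genes XRCC5, which encodes a subunit of the Ku heterodimer, had the second strongest gene-end peak of the 46 (10.3-fold, chromosome 2, 216109419 to 216109961). Its partner XRCC6 had none in its window, the nearest being 137 kb away. PRKDC, the catalytic kinase of this route, had 6.73-fold and 6.09-fold peaks, both within 1 kb of an end of MCM4. XRCC4 had 5.94-fold on the side of TMEM167A, and its partner, the ligase LIG4, had none.

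LIG3, a ligase of single-strand break repair, had 7.26-fold and POLQ, the polymerase of alternative end joining, had 5.17-fold, while XRCC1 and LIG1 had no peak. PARP1, the sensor of single-strand breaks, had no peak at its ends, but 2 peaks of 9.12-fold and 13.0-fold lay beyond the gene's downstream end, the nearer one 7143 bp away. PARP1 was the gene just outside the 1 kb limit, and CHEK1, at 749 bp, the one just inside it. MSH6, which recognises mismatches, had 9.01-fold at its 5′ end (chromosome 2, 47783254 to 47783774), and PMS2, which nicks the mismatched strand, had its nearest peak 366 kb away.

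Nucleotide excision repair genes had a gene-end peak in 2 of 5 cases, neither above 5.45-fold. XPC, which recognises distorted DNA, had the lowest gene-end peak of all 25 (4.26-fold), lower than those of nearly all other genes with one (0.0787% lay below it) and within 1 kb of an end of LSM3. ERCC4, a nuclease subunit, had 5.45-fold. XPA, ERCC1, the partner of ERCC4, and the helicase ERCC2 had no peak. MGMT, which removes alkyl groups from guanine, had a weak 200 bp peak at its start (4.97-fold) and a group of 3 stronger ones of 5.45, 5.94 and 10.8-fold inside the gene, the last with its summit 65370 bp from the start (chromosome 10, 129531917 to 129533867). ATR, RNF168, MDC1, BRCA1 and MGMT were the 5 genes with a gene-end peak whose strongest peak lay elsewhere in the window.

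The strand was known for 22 of the 25 genes with a gene-end peak. In each of the 22 the peak lay at the 5′ end and in 0 at the 3′ end. The 5′ and 3′ ends were not counted over all genes, so this is not a result about the repair genes. Peaks of 8 of the 25 lay within 1 kb of an end of another protein-coding gene. With those left out, a setting chosen after seeing the data, 17 of the 46 genes (37.0%) had a gene-end peak. The share was 12.7% of all genes under the same exclusion. Such a close neighbour was present at 23 of the 46 genes, of which 9 had a gene-end peak, against 16 of the 23 without one. The same split was not made over all genes, so these counts are not a result about the repair genes.

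Measured from annotated starts, which the promoter table gives for 41 of the 46 (not for NBN, WRN, FANCI, XRCC5 and PRKDC), 24 genes had H3K27ac within 1 kb (58.5%, against 20.8% of the 15842 genes with an entry). RAD52 and MRE11 were among the 24, because their peaks lay at annotated starts that are not the ends of the gene body. Summits sat mostly beside the start, not on it. At the 36 starts concerned the median offset of the nearest summit was 236 bp into the gene (quartiles −102 and 324 bp), against 248 bp (−150 and 425 bp) at 4290 starts of all genes. In 23 of the 36 the summit lay downstream, a share of 63.9% against 70.3% over all starts. Starts of 1 gene share peaks, so they are not independent.

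**Figure D3:**
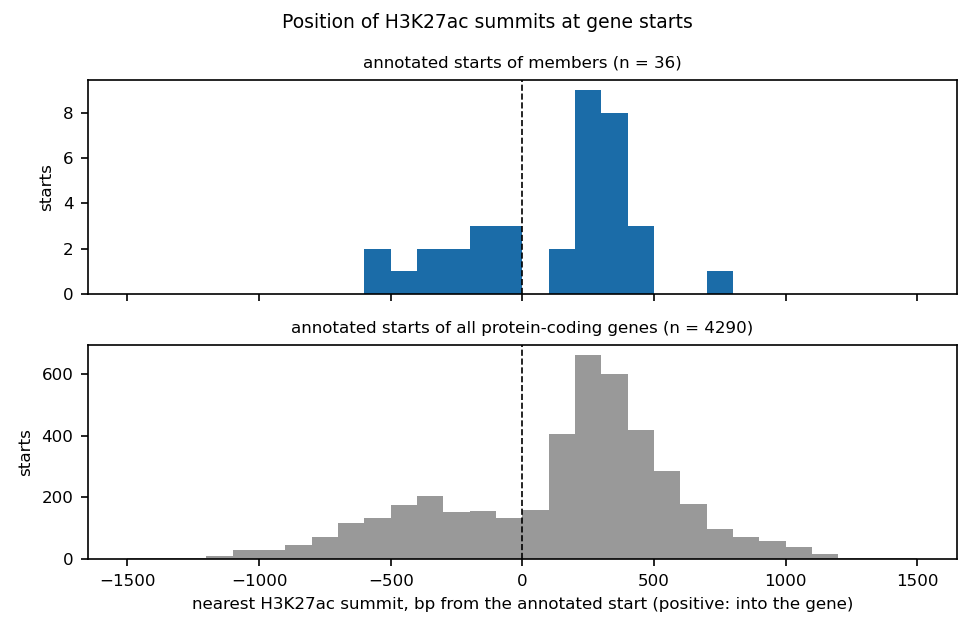
Distance in bp of the nearest H3K27ac summit from annotated starts that have a peak within 1 kb, for 36 starts of the repair genes (top) and 4290 starts of all protein-coding genes (bottom). Positive values lie inside the gene, and the medians are 236 bp and 248 bp.

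Counted over annotated starts, promoters of the repair genes with H3K27ac had a lower median GC than those without, while over all genes they had a higher one. Promoters of the 46 genes with H3K27ac within 1 kb had a median GC content of 62.2% (36 promoters), against 66.8% for the 26 without. Over all genes the medians were 65.0% with and 61.3% without. Between 50 and 60% GC, 12 of 14 promoters of the repair genes had H3K27ac, between 60 and 70% 17 of 33, and between 70 and 80% 7 of 14. The matching shares over all promoters were 18.5, 24.6 and 23.9%. The 36 promoters belong to 24 genes and the 26 to 18 genes. Starts of 1 gene can share a peak and much of their sequence, so these counts are not of independent promoters. The part of GC content in which genes had a peak was not tested.

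Motif letters were counted per gene over its annotated promoters. E2F letters stood in 8 of the 41 genes (19.5%, against 4.53% of all genes), among them MSH6 and FANCD2, and in 5 of the 24 with H3K27ac (20.8%, against 8.11% of all genes with H3K27ac at a start). ETS letters stood in 9 of 41 (22.0%, against 6.97%) and CCAAT boxes in 23 of 41 (56.1%, against 42.1%). RUNX letters stood in 3 of 41 (7.32%, against 14.4%) and the NKX2-1 core in 4 of 41 (9.76%, against 13.3%), namely ERCC1, LIG4, RAD52 and, at a start other than the one shown, MSH6. These are matches of letters in windows of 300 bases, not binding sites.

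The 18 genes without any peak in the window included 10 that lay on 4 chromosomes. None of the 4 genes on chromosome 19 (XRCC1, LIG1, ERCC1 and ERCC2) had a called H3K27ac peak in the window. The same held for both on chromosome 9 (FANCC and XPA), both on chromosome 13 (BRCA2 and LIG4) and both on chromosome 22 (CHEK2 and XRCC6). The 46 genes lie on 18 chromosomes. All 5 on chromosome 3 (ATR, RNF168, FANCD2, POLQ and XPC) and all 4 on chromosome 17 (BRCA1, RAD51C, BRIP1 and LIG3) had a gene-end peak. Over all protein-coding genes the gene-end share was 17.3% on chromosome 19, 18.3% on 9, 7.4% on 13 and 13.7% on 22, against 26.2% on chromosome 3 and 25.0% on 17. It was 19.0% over all chromosomes. Chromosome 16, at 14.1%, had 2 of 3 repair genes with a gene-end peak, and chromosome 12, at 24.0%, had 1 of 2. These chromosomes were picked after their values were seen, each holds few of the 46 genes, and no difference between chromosomes was tested. Chromosome 13 held 62 H3K27ac peaks for 338 genes, and the distance from BRCA2 to the nearest one was 1.42 Mb and from LIG4 2.96 Mb. The nearest peak lay 20.1 kb from XPA, 31.3 kb from CHEK2 and 43.3 kb from XRCC1. It lay 124 to 184 kb from FANCA, LIG1, FANCC and RNF8, 256 to 314 kb from ERCC2, TP53BP1 and ERCC1, 503 kb from BARD1 and 938 kb from WRN.

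**Figure D4:**
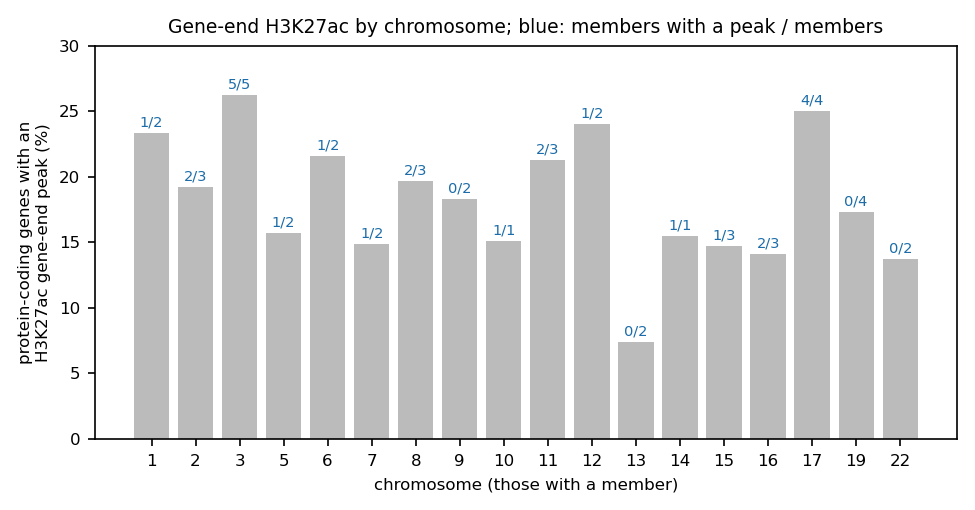
Share of all protein-coding genes with an H3K27ac peak within 1 kb of a gene end (grey bars, percent) on the 18 chromosomes that hold one of the 46 genes. The blue fractions give repair genes with such a peak over repair genes on the chromosome, from 5/5 on chromosome 3 to 0/4 on chromosome 19.

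No NKX2-1 antibody peak lay at any of the 46 genes. In knockout clones C12, C15, S04 and S36 the number of windows with a peak was 0 of 46 each, and in WT clones WT10, WT13, WT28 and WT30 it was also 0 of 46 each. The same held for the authors' combined list and for their list of WT-only regions. A count of 0 of 46 would allow a share of up to 6.52% had the genes been independent draws, which a fixed list is not. Few peaks lay near any gene. The share of all protein-coding genes with a peak in the window was 0.489% in C12, 0.419% in C15, 0.344% in S04 and 1.52% in S36, against 1.31% in WT10, 0.245% in WT13, 0.644% in WT28 and 0.409% in WT30. It was 2.59% for any of the 8 libraries, 0.744% for the combined list and 1.03% for the WT-only list. With all 8 values equal no test of knockout against WT could be made, and at these background shares 0 of 46 is not a result about the repair genes.

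Beyond the windows, distances to the nearest antibody peak were measured for the 46 genes only. They therefore cannot be called long or short against those of all genes. The median distance from the 46 genes to the nearest peak was 9.02 Mb in C12, 5.34 Mb in C15, 11.7 Mb in S04 and 1.79 Mb in S36, against 1.43 Mb in WT10, 10.8 Mb in WT13, 2.26 Mb in WT28 and 5.43 Mb in WT30. The groups overlapped. The mean was 6.96 ± 4.32 Mb in knockout and 4.98 ± 4.25 Mb in WT clones (SD, n = 4 each), a difference of 1.98 Mb with p = 0.514 in a two-sided exact permutation test, which cannot give less than 0.0286. The shortest medians were those of S36 and WT10, the libraries with a peak in the window of the most protein-coding genes (305 in S36 and 262 in WT10, against 69 to 98 in the other knockout clones and 49 to 129 in the other WT clones).

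**Figure D5:**
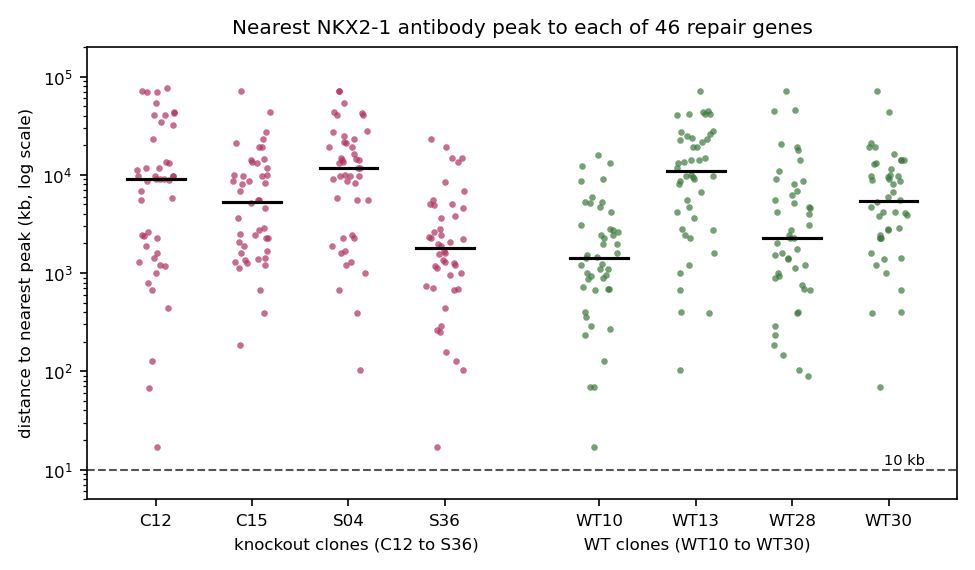
Distance in kb (log scale) from each of the 46 genes to the nearest NKX2-1 antibody peak, for 4 knockout clones on the left and 4 WT clones on the right, with black bars at the medians. All points lie above the dashed line at 10 kb, and the medians run from 1.79 to 11.7 Mb in knockout clones and from 1.43 to 10.8 Mb in WT clones.

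MDC1 was the gene nearest to an antibody peak, and that peak was called in both genotypes. It lay inside the neighbouring gene PPP1R18 (chromosome 6, 30682434 to 30683040 in S36), 16.8 kb from MDC1, over an H3K27ac peak of 16.2-fold. Its enrichment was 6.65-fold in C12 and 12.6-fold in S36, against 3.97-fold in WT10, and it was called in none of C15, S04, WT13, WT28 and WT30. Enrichments from separate lists cannot be ranked against each other. MDC1 was the only one of the 46 genes within 50 kb of a library's call. The share of all protein-coding genes within 50 kb of a call was 1.13% in C12, 0.938% in C15, 0.843% in S04 and 3.19% in S36, against 2.98% in WT10, 0.599% in WT13, 1.44% in WT28 and 0.998% in WT30.

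At BRCA1, which readies breaks for recombination, WT clones had calls between 69.4 and 96.2 kb beyond the outermost start, nearest to CCDC200. WT10 had peaks of 6.38-fold (chromosome 17, 43239746 to 43240072), 8.68-fold (43240960 to 43241284) and 3.62-fold (43266445 to 43267024), and WT30 had 5.48-fold and 5.45-fold at the first and last of these places. All 3 places overlapped H3K27ac (5.27, 9.33 and 8.62-fold) and are in the WT-only list. The only knockout call within 100 kb of BRCA1 was in C12 (43238128 to 43238336, 5.3-fold), 67.8 kb from BRCA1 and outside H3K27ac. C15, S04, S36, WT13 and WT28 had no call that near, although the nearest calls of S04 and WT13 to any of the 46 genes lay 102 kb from BRCA1.

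Within 100 kb there were single calls at 2 other genes. WT10 had one 69.0 kb from CHEK2 (4.76-fold, nearest to XBP1) and WT28 one 90.2 kb from RAD50 (5.11-fold, nearest to IRF1), both without H3K27ac and both in the WT-only list. The combined list had its closest peak 54.2 kb from XPC (chromosome 3, 14232802 to 14233116, 3.89-fold), over an H3K27ac peak of 11.6-fold and called in none of the 8 libraries. The number of the 46 genes within 100 kb of a call was 2 in C12, 0 in C15, 0 in S04 and 1 in S36, against 3 in WT10, 0 in WT13, 1 in WT28 and 1 in WT30. The share of all protein-coding genes within 100 kb of a call was 1.82% in C12, 1.55% in C15, 1.38% in S04 and 5.25% in S36, against 4.88% in WT10, 0.983% in WT13, 2.35% in WT28 and 1.64% in WT30, so counts of 0 to 3 of 46 are not a result about the repair genes. Knockout clones had 0.75 ± 0.957 of the 46 genes within 100 kb of a call and WT clones 1.25 ± 1.26 (SD, n = 4 each), a difference of −0.5 with exact permutation p = 0.743.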

How the data were processed

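Peak lists of 8 NKX2-1 antibody libraries (4 knockout and 4 WT clones) and 1 H3K27ac library were used, with the authors' combined list and WT-only regions. The genotype field reads WT for the WT clones and only NKX2-1 for the 4 other antibody clones, which the series' design names as knockout. It also reads NKX2-1 for the H3K27ac library, for which no clone is named. Per the submitters' processing notes the build was hg38 and the tools included MACS2, Bowtie2, deepTools, SAMtools and FastQC, with no role or order stated. For versions, parameters and controls of peak calling the sources used here give nothing. The deposited lists give each peak a ratio (the fold enrichment that the caller found at the summit), the −log10 of a p-value and q-value, a score (10 times the −log10 q, not used) and a summit. Depth is unknown, so no counting interval can be given beyond the limit for a count of 0 (3 of the total, for independent draws).

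Gene bodies came from RefSeq (GRCh38.p14), which gives no exons, so exonic or intronic position was not determined. All 46 symbols matched. Peaks counted from 1 bp of overlap, and were read with Python 3.11.15, pandas 2.3.3 and NumPy 2.4.6. Groups were compared with two-sided exact permutation tests (SciPy 1.17.1, 70 assignments). Overlap counting was tested on simulated peaks. Named were all members, with values in full for the 5 highest and 5 lowest gene-end enrichments, the 5 with most peaks (3, since 8 genes tied after them) and those without peaks. No member had an antibody peak in its window, so the genes nearest to one were named after their values were seen. The members and lists were chosen with earlier results of these data known. Other flanks, gene-end distances, a −log10 q minimum, summits alone, the 500 strongest peaks and leaving out libraries were tried. Antibody peaks at the other repair genes are not reported here.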

Additional observations from a re-analysis of the deposited data

Results flagged for a closer look

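Clone S36 stood apart from the other knockout clones in the number of protein-coding genes with an NKX2-1 antibody peak in the window. It had 305 such genes, against 98 in C12, 84 in C15 and 69 in S04, a gap above the 95% limit for 4 samples (the gap was 0.877 of the group's range). None of the 305 was among the 46 repair genes. WT10 was the single WT clone with a repair gene within 50 kb of a call (1 gene, MDC1, against 0 in WT13, WT28 and WT30), and S36 and C12 had a call at the same place. With the other 3 WT clones at 0 the gap takes up the whole range by construction, so this second case carries no weight as an outlier. Of groups without such ties, chance flags about 1 in 20, and 10 groups were examined.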

How the results depend on the processing

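Of 48 alternatives, 29 could only return 0, because they removed peaks, space or libraries from antibody counts already at 0, and these say nothing about stability. They include leaving out each antibody library in turn, where the difference was 0 to 0 and the count 0 to 0. Another 13 gave a count within 1.5 times the one reported, an unchanged median, or again 0. Within that tolerance the number of genes with a peak in the window ran from 24 to 32 (28 reported), at a gene end from 17 to 25 (25 reported), and elsewhere from 6 to 9 (9 reported). The remaining 6 moved further. With a −log10 q of at least 10, 6 of the 46 genes (13.0%) had H3K27ac in the window, against 6.17% of all genes, 3 (6.52%) at a gene end, against 3.61%, and 4 (8.7%) elsewhere, against 3.14%. With 50 kb flanks, 21 genes (45.7%) had a peak elsewhere in the window, against 35.9% of all genes. With those flanks 1 gene (MDC1) had an NKX2-1 antibody peak, where 0.599 to 3.19% of all genes did in each library, and the mean number of windows with a peak was 0.25 higher in knockout than in WT clones (exact permutation p = 1.0). No paired analysis was possible because the clones of the 2 genotypes share no number in the labels. Without read depth, uncalled sites and unbound sites cannot be told apart.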

Other observations

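Among the 80 other repair genes, the strongest gene-end H3K27ac stood at TOPBP1, an activator of ATR (12.5-fold), WEE1, a checkpoint kinase (12.3-fold), and FEN1, a flap nuclease (10.6-fold).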
